A study of Mus musculus with 4 samples.

Results

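Interleukin-6 family and growth hormone signalling in the liver was described through 10 genes: the receptor genes Lifr, Il6ra and Il6st, the kinase gene Jak2, the transcription factor genes Stat3, Stat5a and Stat5b, and the feedback inhibitor genes Socs2, Socs3 and Cish. Members were all probe sets whose only symbol in the platform annotation was one of these names, which gave 19 of the 12422 probe sets on the array that were not controls. All 10 genes had at least 1 probe set. The members were measured in total liver RNA on Affymetrix MG_U74Av2 arrays, with 2 arrays from PEPCK-TAg transgenic mice and 2 from wild-type mice. PEPCK-TAg mice express the large T and small t antigens of the virus SV40 from the promoter of the phosphoenolpyruvate carboxykinase gene, and the series asks how long exposure to low levels of these oncoproteins changes liver gene expression. All animals were male B6SJL hybrids aged 58 to 60 days that had eaten, for 4 weeks from weaning, a diet with 10% protein and 70% carbohydrate. The labels speak of duplicate measurements and leave unsaid whether each array stands for its own animal, so a p-value here covers array-to-array spread that may be technical.

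Interleukin-6 binds its receptor Il6ra, and leukaemia inhibitory factor binds Lifr, and both complexes signal through the shared subunit encoded by Il6st. The subunit is coupled to JAK kinases, which phosphorylate STAT3, and STAT3 induces acute phase genes in hepatocytes together with its own inhibitor, Socs3. Growth hormone acts on hepatocytes through its receptor, JAK2 and the STAT5 proteins, and STAT5 induces Igf1, Socs2 and Cish. SOCS proteins and the related protein CISH bind activated receptors or kinases and dampen the signal.

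STAT proteins bind DNA at the palindrome TTCNNNGAA, which reads the same on both strands. RefSeq windows (build GRCm38.p6) from 250 bases before to 50 bases after an annotated start were held for 9 of the 10 genes, 12 windows in all. The motif was in 2 of these 12 windows, those of Cish and Socs3, against 8.3% of 32851 windows of the same length. Cish held 2 copies, 1 beginning at the annotated start and 1 beginning 11 bases after it, and the first also matched the stricter form TTCCNGGAA, which is in 1.15% of all windows. Socs3 held 1 copy, beginning 154 bases before its start. The windows of these inhibitor genes are shown because they hold the motif, and that of Lifr because its probe sets were the members that passed the test. Capitals mark the motif, and sequences run 5′ to 3′ on the gene's strand.
Cish, chr9:107296409-107296708, plus strand: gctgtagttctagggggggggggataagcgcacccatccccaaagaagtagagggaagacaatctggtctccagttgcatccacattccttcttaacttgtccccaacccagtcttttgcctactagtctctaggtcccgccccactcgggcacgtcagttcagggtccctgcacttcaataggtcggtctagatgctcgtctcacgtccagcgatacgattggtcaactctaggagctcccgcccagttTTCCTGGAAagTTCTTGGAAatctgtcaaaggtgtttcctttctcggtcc
Socs3, chr11:117969317-117969616, minus strand: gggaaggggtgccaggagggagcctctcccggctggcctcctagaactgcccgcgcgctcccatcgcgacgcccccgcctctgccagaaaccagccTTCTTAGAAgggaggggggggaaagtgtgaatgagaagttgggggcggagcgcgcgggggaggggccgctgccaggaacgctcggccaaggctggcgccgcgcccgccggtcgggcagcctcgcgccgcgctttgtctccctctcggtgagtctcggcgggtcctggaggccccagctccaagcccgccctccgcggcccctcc
Lifr, chr15:7129322-7129621, plus strand: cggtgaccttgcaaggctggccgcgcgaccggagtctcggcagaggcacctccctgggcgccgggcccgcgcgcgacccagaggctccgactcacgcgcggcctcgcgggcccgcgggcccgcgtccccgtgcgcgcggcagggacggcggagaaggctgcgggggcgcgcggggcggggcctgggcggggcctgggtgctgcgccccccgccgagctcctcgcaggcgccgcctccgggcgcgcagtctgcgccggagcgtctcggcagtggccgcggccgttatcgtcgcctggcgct
The motif letters were not in this Lifr window or in that of its other annotated start. A match of letters describes the sequence and does not show a bound site.

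Each array gave 1 MAS5 signal per probe set, a linear brightness value that the authors had scaled to a common target, with a mean over arrays of 250.2 once 2% was trimmed from each end. Signals were analysed as log2(signal + 13), and a log2 change understates the change of dim probe sets. A probe set was tested if its mean log2 value reached the 40th percentile, near a signal of 48.1, which kept 7453 probe sets. The test was limma, and the threshold was a Benjamini-Hochberg adjusted p under 0.05 over all 7453. Of these, 477 were higher and 229 lower in PEPCK-TAg, or 403 higher and 409 lower after median centring of each array, under which the median change of all probe sets was -0.14. Log2 signals correlated with r = 0.977 between the PEPCK-TAg arrays, 0.975 between the wild-type arrays and 0.943 to 0.954 between groups, across probe sets, which are not independent replicates. Hepatocyte markers were bright, with 22 of 23 probe sets above the filter.

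Of the 19 member probe sets, 14 passed the filter and 5 did not, which were 1 each of Lifr, Il6st, Jak2, Socs3 and the only probe set of Stat5b. Among the 14 tested, 2 fell, both of Lifr, and 12 did not pass. That is 2 of 14 called where 9.47% of all tested probe sets were called, with 2 lower where 3.07% of all were lower and 0 higher where 6.4% of all were higher. At an unadjusted p under 0.05, limma gave 1 higher member probe set (Socs3) and 4 lower (all of Lifr). Among all 7453 tested probe sets, 1156 were higher and 823 lower at this unadjusted p, the background also for the lists below. The median log2 change of the 14 was -0.09, against 0.01 for all tested probe sets. The groups did not overlap in 8 of the 14, 3 with PEPCK-TAg above and 5 with PEPCK-TAg below, where 56.5% of all tested probe sets had groups apart, 30.2% with PEPCK-TAg above and 26.3% with PEPCK-TAg below.

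**Figure D1:**
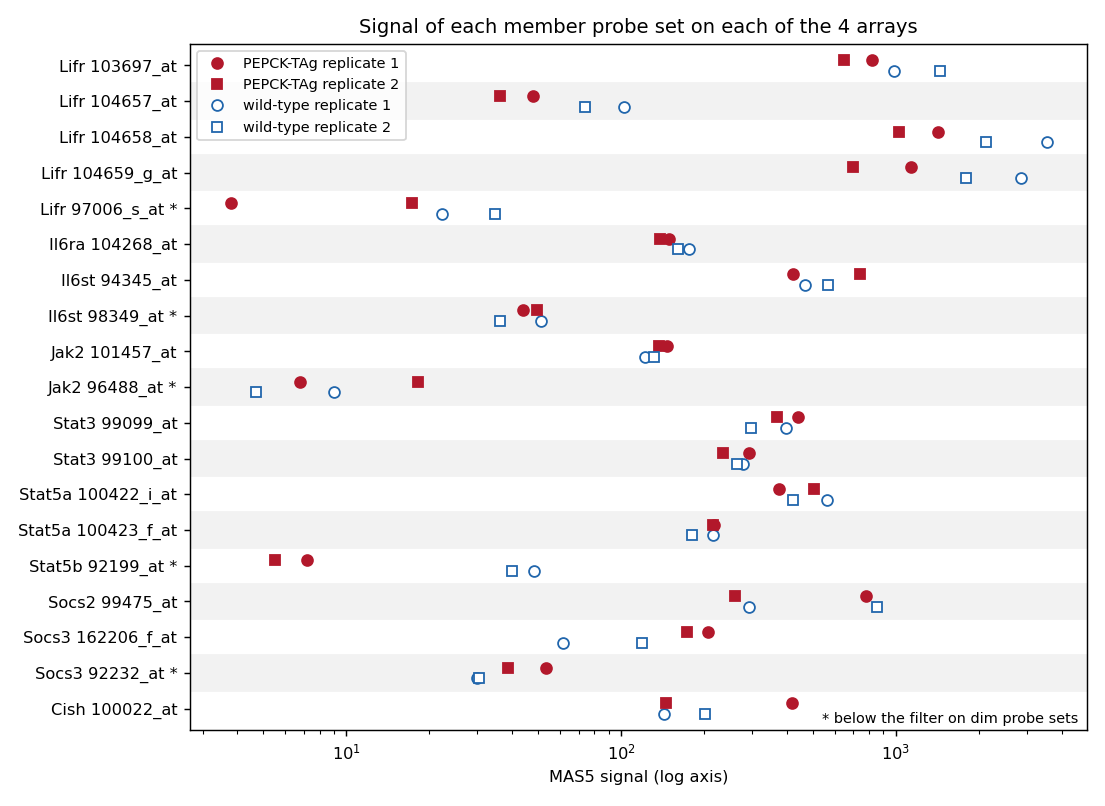
MAS5 signal on a log axis for each of the 19 member probe sets, with PEPCK-TAg arrays as filled red and wild-type arrays as open blue symbols, circles for replicate 1 and squares for replicate 2. All 5 Lifr probe sets had both PEPCK-TAg arrays below both wild-type arrays, as did 26.3% of all tested probe sets. The 2 replicates of Socs2 lay far apart in both groups.

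Lifr, which encodes the receptor chain for leukaemia inhibitory factor, was lower in PEPCK-TAg liver. Probe set 104658_at had signals of 1416 and 1024 on the PEPCK-TAg arrays, against 3531 and 2116.5 on the wild-type arrays. Its log2 change was -1.17 ± 0.28 (SE), a level 2.26 times as high in wild type (limma, Benjamini-Hochberg adjusted p = 0.0463). Probe set 104659_g_at had 1134 and 699.5 in PEPCK-TAg, against 2853 and 1799 in wild type, and fell by 1.33 ± 0.30 (SE) on the log2 scale (limma, adjusted p = 0.0393). Both were designed from the same deposited sequence, so they are not independent measures, and the suffix of the second marks probes that can be shared between probe sets.

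A further pair of Lifr probe sets, each designed from another sequence, lay on the same side without passing the threshold. Probe set 103697_at measured 818 and 646 in PEPCK-TAg, against 982 and 1441 in wild type, a log2 change of -0.70 with a 95% interval of -1.25 to -0.15 (limma, adjusted p = 0.113). The dimmer 104657_at measured 47.7 and 36.4, against 103 and 73.7, a log2 change of -0.87 with an interval of -1.55 to -0.19 (limma, adjusted p = 0.115). The last Lifr probe set, 97006_s_at, lay below the filter, with signals of 3.8 and 17.4 in PEPCK-TAg and 22.3 and 34.7 in wild type. In all 5 the highest PEPCK-TAg array was below the lowest wild-type array, on the deposited scale, as in 26.3% of all tested probe sets. No such share was taken for probe sets below the filter. The 5 read 1 gene on the same 4 arrays, so they are not independent measures. The level of a probe set cannot be set against that of another, so the brighter and dimmer Lifr probe sets do not rank its transcripts.

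The Lifr calls rested on few arrays. In the 13 alternative fits run, every tested Lifr probe set kept its negative sign (104657_at was in 12 of them), and 104658_at passed in 7 and 104659_g_at in 8. With wild-type replicate 1 left out, 104658_at changed by -0.81 and the limma adjusted p was 0.122 for it and 0.127 for 104659_g_at. With PEPCK-TAg replicate 2 left out, their changes were -0.94 and -0.99 (limma, adjusted p of 0.114 and 0.0852). Neither passed with quantile normalization, without the filter or without the mean-variance trend, and 104658_at did not pass with cyclic loess. Leaving out an array could not turn the sign of these probe sets, as their groups did not overlap. The offset, filter, variance model and block could not turn it either, so the kept sign adds little.

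**Figure D2:**
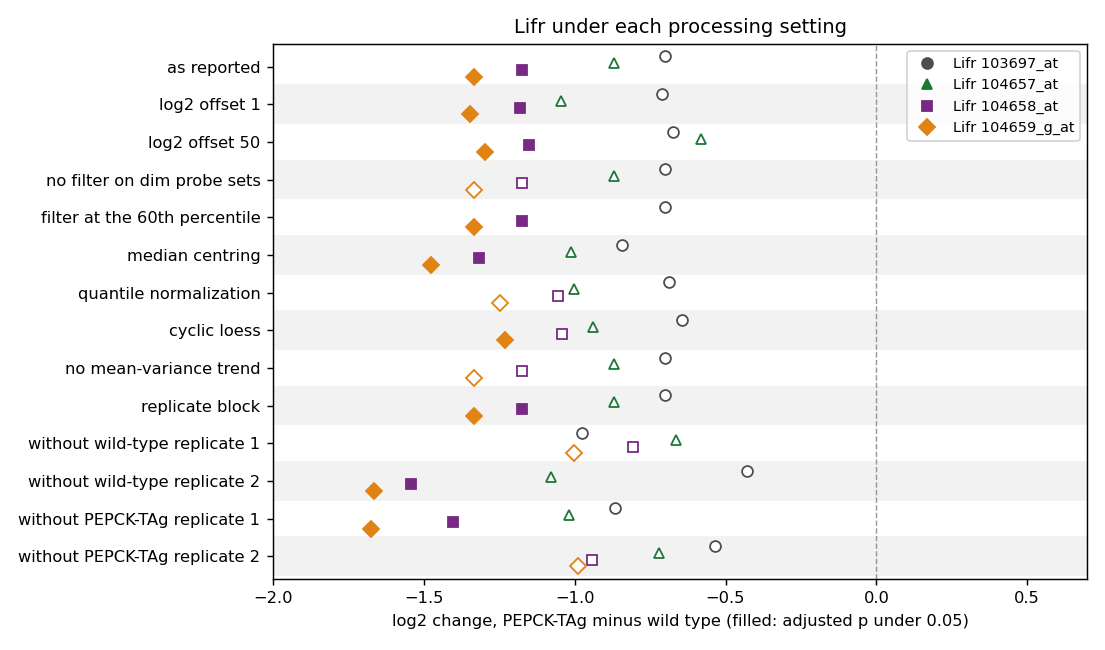
Log2 change (PEPCK-TAg minus wild type) of the 4 tested Lifr probe sets under the reported setting and 13 alternatives (12 for 104657_at, which a filter at the 60th percentile removed), filled where the adjusted p was under 0.05. Every symbol lies left of 0, which most settings could not change because the groups did not overlap. The calls of 104658_at and 104659_g_at came and went with the setting.

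Markers of hepatocytes, the main parenchymal cell of the liver, were also lower. Their summed signal over 23 probe sets was 105679 and 98035 on the PEPCK-TAg arrays, against 144602 and 128232 on the wild-type arrays. Of 22 tested, 2 fell (Apoa2 and Rbp4, which encode plasma transport proteins), 0 rose, with a median log2 change of -0.37 and a range of -1.05 to 0.47, which overlaps that of the Lifr probe sets. At an unadjusted p under 0.05, limma gave 11 lower and 0 higher, where 823 of all 7453 tested probe sets were lower and 1156 higher. With wild-type replicates 1 and 2 left out in turn 0 and 4 hepatocyte probe sets fell, with PEPCK-TAg replicates 1 and 2 left out 1 and 0, and 8 fell with median centring, 5 with a filter at the 60th percentile and 0 without the filter, with quantile normalization or without the mean-variance trend. In bulk RNA, fewer hepatocytes and less Lifr RNA per cell cannot be told apart, and the part of hepatocyte content in the Lifr result was not tested. By distance between mean-centred log2 values over the 4 arrays, the named probe sets most like Lifr 104658_at were those of Tle5 (distance 0.0568), Slc10a1 (0.100) and Avpr1a (0.172), a description over 4 arrays and chosen from 7453 probe sets.

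The partner receptor chains gave no call. Il6ra, the chain that binds interleukin-6, measured 149 and 139 in PEPCK-TAg, against 176 and 161 in wild type. The PEPCK-TAg arrays were the lower pair, by a log2 change of -0.21 with a 95% interval of -0.64 to 0.22 (limma, adjusted p = 0.514). Il6st, the shared signalling chain, measured 421 and 738 in PEPCK-TAg, against 468 and 563.5 in wild type by probe set 94345_at, so the groups overlapped. Its log2 change was 0.12 with an interval of -0.54 to 0.78 (limma, adjusted p = 0.834). The other Il6st probe set, below the filter, had 43.8 and 49.6 in PEPCK-TAg and 51.1 and 36.2 in wild type. Whether Lifr differed from Il6ra or Il6st in its change was not tested.

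Jak2, the kinase that growth hormone and several cytokine receptors use, measured 147 and 137 in PEPCK-TAg, against 122 and 131 in wild type by probe set 101457_at. The groups were narrowly apart, with a log2 change of 0.15 and a 95% interval of -0.29 to 0.60 (limma, adjusted p = 0.660). The other Jak2 probe set lay between signals of 4.7 and 18.3 on the 4 arrays, below the filter, with overlapping groups.

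Stat3, the main transcription factor of the interleukin-6 response, did not pass by either probe set. Probe set 99099_at had 440.2 and 369.7 in PEPCK-TAg, against 399.5 and 297 in wild type, with a log2 change of 0.22 and a 95% interval of -0.27 to 0.71 (limma, adjusted p = 0.556). Probe set 99100_at had 292 and 235.5 in PEPCK-TAg, against 277 and 264 in wild type, a log2 change of -0.04 with an interval of -0.47 to 0.39 (limma, adjusted p = 0.912). The groups overlapped by both probe sets. The arrays read RNA, not STAT3 phosphorylation.

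Stat5a and Stat5b encode closely related mediators of growth hormone and differed in how well the array read them. Stat5a measured 374 and 501 in PEPCK-TAg, against 563 and 423.5 in wild type by 100422_i_at, and 218 and 216.5 against 215.5 and 181.5 by 100423_f_at. The log2 changes were -0.17 (95% interval -0.70 to 0.36) and 0.13 (-0.30 to 0.55), of opposite sign, with limma adjusted p of 0.694 and 0.714. Both Stat5a probe sets stem from 1 sequence and have suffixes that mark an incomplete or shared probe selection, so related transcripts can add to them. Stat5b, the form that dominates growth hormone action in male mouse liver, had signals of 7.2 and 5.5 in PEPCK-TAg, against 48.3 and 40.2 in wild type. All 4 values are dim and the probe set lay below the filter, so it had no test in the reported fit. In the alternative without a filter its log2 change was -1.56 ± 0.23 (SE), a size that depends on the offset, and it was the only member probe set to pass there (limma, adjusted p = 0.0328). No detection calls were used here, so a low Stat5b signal cannot be told apart from background.

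**Figure D3:**
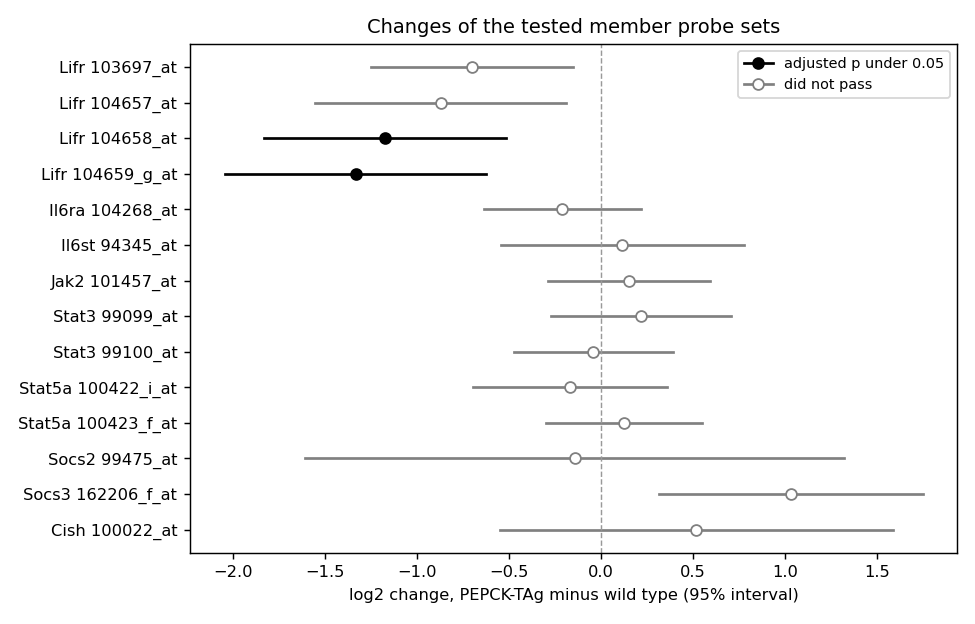
Log2 change (PEPCK-TAg minus wild type) with 95% intervals from limma for the 14 tested member probe sets, black where the adjusted p was under 0.05. The 4 Lifr intervals lie below 0, that of Socs3 lies above 0 without passing the adjusted threshold, and that of Socs2 is the widest.

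Among the feedback inhibitors, Socs3 was read higher in PEPCK-TAg by both probe sets without passing the threshold. Probe set 162206_f_at had 207 and 174 in PEPCK-TAg, against 61.4 and 119 in wild type, a log2 change of 1.03 with a 95% interval of 0.32 to 1.75 (limma, unadjusted p = 0.0116, adjusted p = 0.0829). Its suffix marks probes that can be shared within a sequence family. The dimmer 92232_at, below the filter, had 53.4 and 38.9 in PEPCK-TAg and 30.0 and 30.3 in wild type. Without wild-type replicate 2, 162206_f_at changed by 1.45 and passed (limma, adjusted p = 0.0244), and without wild-type replicate 1 by 0.62 (limma, adjusted p = 0.186), so the size turned on which wild-type array was kept.

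Socs2 and Cish, the STAT5-induced inhibitors, varied widely between arrays of a group. Socs2 measured 778 and 259 on PEPCK-TAg replicates 1 and 2, against 291 and 849 on wild-type replicates 1 and 2. The arrays of a group thus differed 3.01-fold in PEPCK-TAg and 2.92-fold in wild type, and the within-group SD of 1.08 on the log2 scale was larger than that of 99.5% of tested probe sets, whose median was 0.184. The log2 change of Socs2 was -0.14 with a 95% interval of -1.61 to 1.32 (limma, adjusted p = 0.910). Leaving out 1 array in turn moved it between -0.91 and 0.63, so these arrays do not give Socs2 a direction.

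Cish had 419 and 146 on PEPCK-TAg replicates 1 and 2, against 143 and 201 on wild-type replicates 1 and 2. One PEPCK-TAg array stood above both wild-type arrays and the other lay between them. The log2 change was 0.52 with a 95% interval of -0.55 to 1.59 (limma, adjusted p = 0.519). Without PEPCK-TAg replicate 2 it was 1.24 and passed (limma, adjusted p = 0.0363), and without PEPCK-TAg replicate 1 it was -0.20, so a single array decided its sign. The within-group SD of Cish, 0.755 on the log2 scale, exceeded that of 97.9% of tested probe sets, while those of Jak2 (0.0664) and Il6ra (0.0773) were among the smaller.

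**Figure D4:**
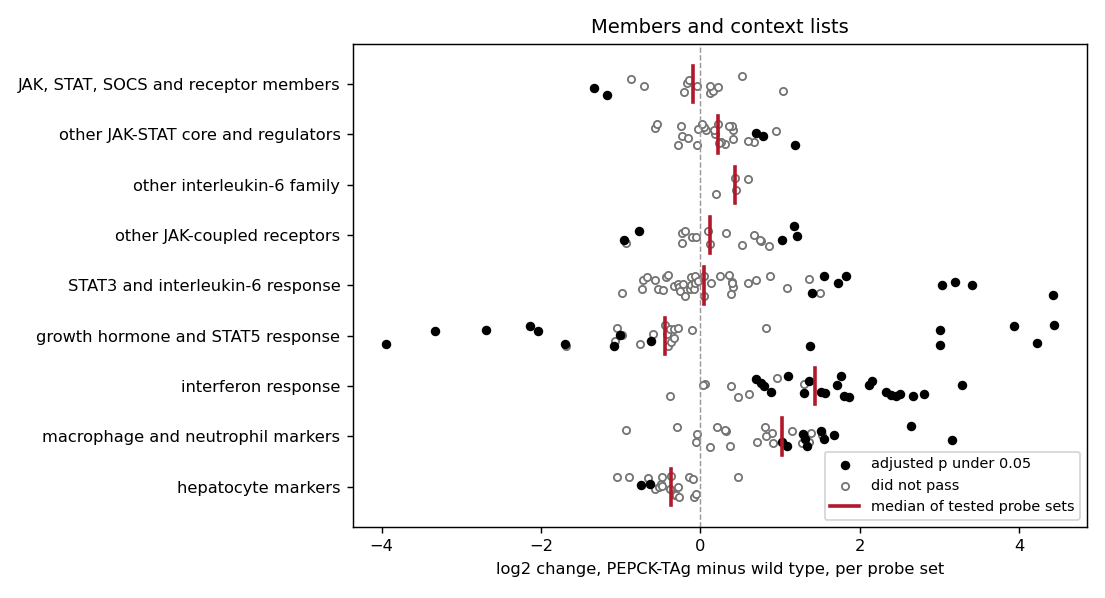
Log2 change (PEPCK-TAg minus wild type) of each tested probe set of the members and of 8 context lists, black where the adjusted p was under 0.05, with the list median as a red bar. Members centre near 0 with the Lifr probe sets at the low end, and the growth hormone list has calls on both sides.

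Other genes of the pathway were taken from lists that exclude the members. Of 36 further JAK-STAT components, 27 were on the array with 27 tested probe sets, of which 3 rose and 0 fell, with a median log2 change of 0.23. Eloc, a subunit of the SOCS-associated ubiquitin ligase, had 274 and 256 in PEPCK-TAg, against 93.2 and 127 in wild type, and rose by 1.19 by probe set 94008_at (limma, adjusted p = 0.0182), while its other 2 probe sets did not pass. Ptpn1, a phosphatase that acts on JAK kinases, rose by 0.79 (limma, adjusted p = 0.0463), and Irf9, a transcription factor gene of the interferon response, by 0.69 (limma, adjusted p = 0.0462). None of the 3 passed without wild-type replicate 1 or without PEPCK-TAg replicate 1, and Ptpn1 and Irf9 did not pass without PEPCK-TAg replicate 2 (limma, adjusted p of 0.180 and 0.157). Without wild-type replicate 2, Irf9 had an adjusted p of 0.0614. With all arrays and median centring, Ptpn1 and Irf9 had limma adjusted p of 0.0821 and 0.0963. Neither passed with quantile normalization, without the filter or without the mean-variance trend. Each of these 4 settings left 1 rise in the list. The kinase genes Jak1 and Tyk2 did not pass, with log2 changes of 0.41 and -0.57 (limma, adjusted p of 0.173 and 0.498). Socs1, a further inhibitor gene that was picked out after its values were seen, lay below the filter and had 78.7 and 56.2 in PEPCK-TAg and 27.9 and 18.7 in wild type. Prlr was not analysed here.

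Of 18 further interleukin-6 family ligands and receptors, 7 were on the array with 4 tested probe sets. By limma, 0 passed, and 1, the cardiotrophin gene Ctf1 (named after its value was seen), was higher at an unadjusted p under 0.05. Osmr, the receptor chain for oncostatin M, measured 75.9 and 125 in PEPCK-TAg, against 59.0 and 61.3 in wild type (limma, adjusted p = 0.239). Without wild-type replicate 2, 1 probe set of this list passed. The Il6 probe set itself lay far below the filter, with 2.6 and 3.7 in PEPCK-TAg and 2.6 and 15.8 in wild type, so these arrays gave no usable reading of the ligand.

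Other receptors that use JAK kinases gave 3 rises and 2 falls among 19 tested probe sets, with a median log2 change of 0.13. Ghr, the growth hormone receptor, fell by both probe sets. It had 1164 and 998 in PEPCK-TAg, against 2266 and 1949 in wild type, by 99108_s_at, a log2 change of -0.95 ± 0.16 (SE) (limma, adjusted p = 0.0182), and -0.77 by 99107_at (limma, adjusted p = 0.0345). Rises were those of the interferon gamma receptor gene Ifngr1 (1.18, limma adjusted p = 0.0157), of Il10rb (1.02, limma adjusted p = 0.0248), a shared chain of interleukin-10 family receptors, and of Csf2rb2 (1.22, limma adjusted p = 0.0411), a beta chain of the interleukin-3 receptor. Without PEPCK-TAg replicate 2, 0 of these 5 probe sets passed, with limma adjusted p from 0.0652 (Ghr 99108_s_at) to 0.176 (Csf2rb2). Without wild-type replicate 1 only Ifngr1 of them passed. Without wild-type replicate 2 the adjusted p was 0.0980 for Csf2rb2 and 0.0610 for Ghr 99107_at, and without PEPCK-TAg replicate 1 it was 0.105 for Ghr 99107_at.

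Genes that respond to STAT3 or interleukin-6 in liver did not move as one. Of 45 tested probe sets 8 rose and 0 fell, where 6.4% of all tested probe sets were higher and 3.07% lower. The median log2 change of the list was 0.04, near that of all tested probe sets. By limma, 14 were higher and 6 lower at an unadjusted p under 0.05, where 1156 of all 7453 were higher and 823 lower. A filter at the 60th percentile left 4 rises. Falls numbered 2 with median centring. Leaving out an array gave 2 falls for wild-type replicate 1, 1 for wild-type replicate 2, 1 for PEPCK-TAg replicate 1 and 0 for PEPCK-TAg replicate 2. The acute phase gene Saa3 had 614 and 527.5 in PEPCK-TAg, against 172 and 154 in wild type. The other rises of the largest size were Lcn2, Mt1, Mt2, Birc5 and Il1rn, of which Birc5 is better known as a gene of dividing cells. Il1rn did not pass without wild-type replicate 2 (limma, adjusted p = 0.0601) or PEPCK-TAg replicate 2 (limma, adjusted p = 0.0553). Pim1, a kinase gene induced by STAT proteins, measured 365 and 370.5 in PEPCK-TAg, against 524.5 and 386 in wild type by its tested probe set (limma, adjusted p = 0.419).

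Genes that respond to growth hormone through STAT5 moved in both directions, with 6 rises and 9 falls among 31 tested probe sets and a median log2 change of -0.44. The changes ran from -3.94 to 4.44, and the genes named here are not those of the largest change. Without PEPCK-TAg replicate 2 there were 3 rises, and a filter at the 60th percentile left 1. Falls included Egfr, the epidermal growth factor receptor gene, with 599 and 309.6 in PEPCK-TAg, against 1571 and 1294 in wild type by 101842_g_at (limma, adjusted p = 0.0202), which did not pass without wild-type replicate 1 (limma, adjusted p = 0.0747) or with no filter (limma, adjusted p = 0.0521). Egfr also fell by 101840_at, with a log2 change of -1.08 (limma, adjusted p = 0.0231). With no filter its limma adjusted p was 0.0489, close to the threshold. Leaving out 1 array in turn moved this change between -1.31 and -0.85, and the call was not kept in every such fit. Rises included the female-biased Cyp2b13, with 137 and 346.5 in PEPCK-TAg, against 18.4 and 13.4 in wild type (limma, adjusted p = 0.00972). Its wild-type signals were below the level of the filter, so it was tested through its PEPCK-TAg signals, and its log2 change depended on the offset, with 3.01 at 13, 3.71 at 1 and 2.05 at 50. It was not tested when PEPCK-TAg replicate 2 was left out or when the filter stood at the 60th percentile. Igf1, the main growth hormone target, fell by 0.62 by 95546_g_at (limma, adjusted p = 0.0395) and changed by -0.38 by 95545_at (limma, adjusted p = 0.274), and its call was lost when any 1 of the 4 arrays was left out, with limma adjusted p from 0.0709 to 0.189. Bcl6, a repressor gene that STAT5 regulates, measured 518 and 226 in PEPCK-TAg, against 1040 and 262 in wild type, so the groups overlapped and each held a high and a low array (limma, adjusted p = 0.617).

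Genes of the interferon response gave 22 rises and 0 falls among 30 tested probe sets, with a median of 1.43, and 12 rises without PEPCK-TAg replicate 2.

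Markers of other cells that carry these receptors moved as well. Macrophage and neutrophil markers, 50 probe sets, had a summed signal of 18118 and 24128 on the PEPCK-TAg arrays, against 6682 and 10738 on the wild-type arrays. Of 29 tested probe sets 10 rose and 0 fell, with 3 rises without PEPCK-TAg replicate 2, 14 without wild-type replicate 2, 5 without the filter and 6 without the mean-variance trend. With all arrays, limma gave 17 of the 29 higher and 1 lower at an unadjusted p under 0.05. Their log2 changes ran from -0.93 to 3.15. Clec4f, a marker of the resident macrophages of the liver, had 1972 and 2953 in PEPCK-TAg, against 738 and 1209 in wild type. The summed signal of bile duct markers over 17 probe sets was 4808 and 6172 in PEPCK-TAg, against 2340 and 2828 in wild type, with 2 rises among 4 tested and 1 without wild-type replicate 1 or without PEPCK-TAg replicate 2. Endothelial markers over 22 probe sets summed to 2592 and 3999 in PEPCK-TAg, against 4095 and 4803 in wild type, and by limma 0 of 16 tested passed, with 4 lower at an unadjusted p under 0.05 and 1 fall without PEPCK-TAg replicate 2. Sums of lymphocyte, stellate cell and red blood cell markers overlapped between groups, with 0, 1 and 1 rises among 6, 21 and 7 tested probe sets. Without PEPCK-TAg replicate 1 there were 2 lymphocyte and 2 stellate rises, stellate rises numbered 0 when any other single array was left out, and 1 red blood cell probe set fell without wild-type replicate 1. The bile duct list includes the keratin genes Krt8 and Krt18, which are not specific to bile duct cells. Of its 17 probe sets 13 lay below the filter, and whether bile duct content differed was not tested. The part of all these cells in the readings of Socs3, Csf2rb2, Ifngr1 and Il10rb was not tested.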

How the data were processed

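The authors deposited 1 MAS5 signal intensity per probe set and array on a linear scale, as named in the submitters' processing notes and the values themselves. Their software version, scaling target and detection calls were not given in the sources used here. Equal trimmed means show scaling to 1 target, and no further normalization was applied. Per the file headers, the 4 arrays shared chip type and fluidics station and each had its own fluidics module, so module and array cannot be told apart. Of 12488 probe sets, 66 controls were left out. Of 12422 others, 10833 had 1 symbol, 396 several and 1193 none here; 10817 matched RefSeq genes by Entrez identifier, with 0 symbols changed.

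PEPCK-TAg was compared with wild type by limma 3.58.1 in R 4.3.3 (lmFit, eBayes with a mean-variance trend; 2 residual and 4.61 prior degrees of freedom), two-sided, on log2(signal + 13), the offset being 5% of the trimmed mean, with Benjamini-Hochberg adjustment over 7453 probe sets above the 40th percentile. Intervals are 95% moderated intervals. An exact permutation test of 2 arrays against 2 cannot go below p = 0.333 and was left out. Precision is limited by the number of arrays. The actin control had 3′ over 5′ signal ratios of 5.06 and 4.79 on the PEPCK-TAg arrays and 4.87 and 4.06 on the wild-type arrays. Those of the Gapdh control were 3.36 and 2.95, and 3.67 and 3.8. All arrays thus read the 3′ end of these controls more strongly, which limits comparison of probe sets of 1 gene. The procedure was tested on simulated data with independent noise on each array, so that test does not cover technical duplicates or a batch. Alternatives were the offset, filter, normalization, variance model, replicate number as a block and each array left out. All member probe sets were named; in each list up to 6 of those past the threshold in each direction and 10 fixed genes could be named. Members and lists were chosen with earlier results of these data known.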

Additional observations from a re-analysis of the deposited data

How the results depend on the processing

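Every value here comes from limma with Benjamini-Hochberg adjustment. The count of lower member probe sets, 2 with all arrays, was 1 without the filter on dim probe sets (Stat5b, with Lifr 104658_at and 104659_g_at at adjusted p of 0.0967 and 0.0856), 0 with quantile normalization, 1 with cyclic loess, 0 without the mean-variance trend, and 0 to 2 when 1 array was left out. The count of higher member probe sets, 0 with all arrays, was 1 with the replicate number as a block and 0 to 1 when 1 array was left out. The count of all lower probe sets, 229, was 105 without the filter, 409 with median centring, 117 without the trend and 110 to 143 when 1 array was left out, and that of all higher probe sets, 477, was 288 to 420 when 1 array was left out. The labels do not say that equal replicate numbers pair arrays, and deviations of same-numbered arrays correlated with r = 0.181 across probe sets. With this replicate block 696 probe sets were higher and 444 lower, Socs3 162206_f_at passed (adjusted p = 0.0455), and Lifr 104658_at and 104659_g_at had adjusted p of 0.00235 and 0.00128. The called Lifr probe sets kept their sign in all 13 alternatives, most of which could not turn it because their groups did not overlap. With the block, rises numbered 18 among macrophage and neutrophil markers, 3 among stellate and 2 among lymphocyte markers, and falls 16 among growth hormone and STAT5 response genes, 10 among hepatocyte markers, 4 among STAT3 response genes and 2 among endothelial markers. Of 338 recomputed counts of context lists, 281 stayed within 1.5 times, with counts of 0 that stayed 0 among them. This number therefore does not measure how stable the counts above 0 were. Dim members, above all Stat5b, are limited by signal over background, which has no detection call here. With 2 arrays a group, a change near 1 on the log2 scale lies close to the threshold, and a member that missed it is not shown to be unchanged.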

Other observations

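Some further genes of the pathway lay below the filter with groups that did not overlap, and they were picked out after their values were seen. Groups did not overlap in 56.5% of all tested probe sets, and no such share was taken for those below the filter. Stat4, a transcription factor gene of the interleukin-12 response, had signals of 29.4 and 19.0 on the PEPCK-TAg arrays, against 7.1 and 5.8 on the wild-type arrays. Il13ra2, which encodes a decoy receptor for interleukin-13, had 3.7 and 2.5 in PEPCK-TAg, against 23.6 and 15.4 in wild type. Neither had a test in the reported fit, and both lie in the range where signal and background were not separated.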
